A study of Mus musculus with 24 samples.

Results

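Keratins are the filament proteins of epithelia, and keratin-associated proteins form the matrix that embeds the keratins of the hair shaft. The genes described here are the protein-coding mouse genes whose symbol is Krt or Krtap followed by a number, without Krt8 and Krt18, the keratin pair of simple epithelia. Each gene was represented by a gene end, a window reaching 1000 bp to each side of the gene's start or far end, whichever held more CpGs, and its level was the share of calls at those CpGs that were methylated. A window was kept with at least 5 CpGs and at least 10 calls in every library. Of 107 genes by symbol, 104 had a window that could be tested, among 20320 protein-coding gene ends tested in all. They comprised 53 keratin-associated genes, 27 type I keratins and 24 type II keratins. Krtap9-5 had 4 CpGs, and Krtap19-2 and Krtap20-2 had 2 and 8 calls in their poorest library, so these 3 genes were not tested.

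The data came from whole-genome bisulfite sequencing with a prior oxidation, which reads 5-methylcytosine and not 5-hydroxymethylcytosine, in mouse induced pluripotent stem (iPS) cells and embryoid bodies, the aggregates in which such cells differentiate. The knock-in (KI) cells were the clones N5 and N9, which carry miR-203 under doxycycline control, and the control was wild-type (WT) iPS cells. Both were sampled before doxycycline (t=0), 5 days after a pulse of 5 days (day 10), 20 days after it (day 25) and as embryoid bodies of day 32. Every stage had 2 KI libraries, 1 for each clone. The WT column pairs of a stage are headed as replicates 1 and 2, but the 2 WT samples carry the same index and flow cell in their titles, so they were treated as lanes of 1 library. Whether they were separate libraries is not settled by the headers. Their counts differed by a mean chi-square of 2.20 to 2.30 per gene end, and those of the 2 clones by 2.32 to 3.10. At day 25 the WT columns thus differed nearly as much as the 2 clones, with 2.20 against 2.32. KI values are means ± SD of the 2 clones unless given per clone. All cells were grown over feeder cells. The label of the KI embryoid bodies names doxycycline and that of the WT embryoid bodies does not, and the WT label gives 10 days of differentiation where the design gives 7. The promoter that drives the knock-in and the parentage of the clones are not given in the sources used here.

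Libraries held 102896335 to 191210205 calls, a mean coverage of 4.70 to 8.74 per CpG. Of N5, the t=0, day 25 and embryoid body libraries were sequenced on another flow cell than the other 9 libraries. Chromosome Y, read at its start, had 0.0129 and 0.0110 times the coverage of chromosome 5 in the day 25 libraries of N5 and N9. The ratio was 0.0389 and 0.0407 in their t=0 libraries and 0.0002 to 0.0019 in the other 8 libraries. Chromosome Y coverage thus moved with the stage in KI cells, and its part in the results was not tested. Methylation calls do not show which genes are transcribed, so the pluripotent state could not be checked by expression. The gene ends of a list of 6 pluripotency genes had a median level of 14.1% ± 0.367 in KI cells at t=0, against 15.8% in WT cells. At day 25 the medians were 5.03% ± 0.685 in KI cells and 16.3% in WT cells. In embryoid bodies they were 20.5% ± 2.2 in KI and 7.53% in WT. The pooled calls of these 6 genes showed no such WT drop. They stood at 17.4% in WT embryoid bodies, against 17.9% in WT day 25 cells and 16.1% in WT t=0 cells. Pooled levels of N5 and N9 were 15.8% and 9.67% by day 25, against 21.6% and 20.3% before doxycycline. Their embryoid bodies had pooled levels of 26.6% and 26.5%. For a list of 10 fibroblast genes, taken as markers of feeder cells, the KI median was 32.0% ± 5.88 before doxycycline (t=0), 33.1% ± 2.87 by day 25 and 58.4% ± 2.46 in embryoid bodies. WT medians of this list were 29.8%, 19.8% and 55.4% at these stages. Its pooled KI calls were lower at day 25, with 10.7% and 11.2% in N5 and N9, against 14.4% and 13.2% at t=0. Pooled WT levels were 9.78% at day 25 and 12.1% at t=0. How far feeder cells contributed was not tested. The summed WT counts of a stage, taken as 1 library, were given the spread of the clones in every test, and a bulk library cannot separate a partial change in all cells from a full change in some.

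Keratins assemble as pairs of a type I and a type II chain. In the epidermis, basal cells make Krt5 with Krt14, and cells that leave the basal layer switch to Krt1 with Krt10, while the hair shaft and its inner root sheath use their own keratins. miR-203 is the microRNA best known from the epidermis, where it represses Trp63, the transcription factor of the basal layer, as cells differentiate. Its mature sequence is shown because it is the agent induced in the KI cells, and its seed (bases 2 to 8), the stretch that pairs with target transcripts, is in capitals. It lies at chr12:112130927-112130948 on the plus strand of GRCm38.p6, as given by RefSeq.

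mmu-miR-203-3p: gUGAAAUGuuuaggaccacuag

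The DNA before the starts of 4 keratin genes is shown because it makes visible how few CpGs most of them hold. Each sequence is the 250 bases before the gene start in RefSeq (GRCm38.p6), read in the direction of transcription, with every CpG in capitals. Krt5 (chr15:101712906-101713155, minus strand) is the type II keratin of the basal epidermis. Krt7 (chr15:101412153-101412402, plus strand) is a keratin of simple epithelia and glands. Krt42 (chr11:100269952-100270201, minus strand), a type I keratin, had the largest difference in course between KI and WT cells. Krtap22-2 (chr16:89010760-89011009, minus strand) was the 1 gene called lower at day 10. All 4 stretches lie inside the windows tested.

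Krt5: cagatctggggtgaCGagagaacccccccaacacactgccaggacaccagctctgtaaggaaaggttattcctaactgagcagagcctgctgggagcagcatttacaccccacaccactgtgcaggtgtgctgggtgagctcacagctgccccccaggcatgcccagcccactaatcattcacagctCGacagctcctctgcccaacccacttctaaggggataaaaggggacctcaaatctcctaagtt
Krt7: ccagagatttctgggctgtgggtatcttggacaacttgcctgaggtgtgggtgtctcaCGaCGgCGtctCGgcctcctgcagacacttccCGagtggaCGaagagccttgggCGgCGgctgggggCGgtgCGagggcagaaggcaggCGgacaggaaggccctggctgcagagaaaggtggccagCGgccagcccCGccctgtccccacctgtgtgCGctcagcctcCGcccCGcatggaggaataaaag
Krt42: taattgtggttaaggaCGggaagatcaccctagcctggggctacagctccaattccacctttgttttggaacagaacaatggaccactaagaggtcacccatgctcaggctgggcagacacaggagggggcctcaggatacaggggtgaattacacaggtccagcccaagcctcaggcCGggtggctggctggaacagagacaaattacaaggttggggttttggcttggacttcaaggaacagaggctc
Krtap22-2: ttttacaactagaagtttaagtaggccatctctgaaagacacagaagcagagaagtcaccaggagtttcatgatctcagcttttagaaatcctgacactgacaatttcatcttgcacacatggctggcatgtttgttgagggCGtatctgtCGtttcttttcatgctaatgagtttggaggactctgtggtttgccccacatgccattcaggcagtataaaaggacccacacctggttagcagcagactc

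Of these stretches, Krt7 held 16 CpGs, and Krt5, Krt42 and Krtap22-2 held 2 each. A promoter sequence was at hand for 82 of the 104 genes, and these held a median of 3 CpGs, with a range of 0 to 16, where all 27025 promoters of the same length had a median of 6. In 6 of the 82 the start that goes with the promoter sequence lay over 100 bp from the start used for the gene end. The letters TATAAA, searched on both strands anywhere in the 250 bases, occurred in 56 of the 82 (68.3%), against 13.0% of all promoters. By type they occurred in 39 of 48 keratin-associated genes (81.2%), 12 of 20 type I keratins and 5 of 14 type II keratins (35.7%). In the Krt7 stretch, t=0 levels were 23.1% in N5 and 34.6% in N9, day 10 levels 31.3% and 28.2%, day 25 levels 23.7% and 18.3%, and those of embryoid bodies 43.8% and 53.2%. WT levels ran between 23.3% and 29.0%. The embryoid bodies of both clones thus lay above all other libraries there. The stretches of Krt5, Krt42 and Krtap22-2 had at most 33 calls in a library, too few for a level of their own.

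Keratin gene ends were highly methylated throughout, where most other gene ends were not. The median level over the 104 genes at t=0 was 71.8% ± 1.35 in KI cells and 67.4% in WT cells, against 10.1% ± 0.0183 in KI cells and 9.21% in WT cells over all gene ends. The windows held a median of 26.5 CpGs, compared with 65 for all ends, and 4 of the 104 had 60 or more. Ends of few CpGs were highly methylated in general. With 5 to 19 CpGs, KI medians at t=0 were 74.7% ± 0.627 in keratin genes and 72.6% ± 0.36 in all ends. With 20 to 39 CpGs they were 74.1% ± 1.98 and 66.7% ± 0.0347. The gap was wider with 40 to 59 CpGs (69.9% ± 1.68 and 16.0% ± 0.175) and with 60 or more (25.3% ± 5.64 and 3.50% ± 0.0793). Of the 82 genes of known strand, the denser end was the gene start in 41 and the far end in 41. Around the starts of all 16259 tested genes of known strand, KI methylation at t=0 dropped to 6.80% ± 0.0467 in the first 500 bp after the start, while around those 82 keratin genes it stood at 65.8% ± 0.108, and at 75.3% ± 2.07 from 1000 to 500 bp before it. The same bin of the keratin genes stood at 47.1% ± 0.275 in KI cells at day 25 and 76.1% ± 0.462 in KI embryoid bodies. The pooled calls of the 82 keratin genes therefore showed a dip at the start, but a shallow one. The first 500 bp after the start held 848 of their CpGs, against 330 from 1000 to 500 bp before it. Genes with many CpGs there count for more in such a pool, and whether most keratin genes dipped was not tested.

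**Figure D1:**
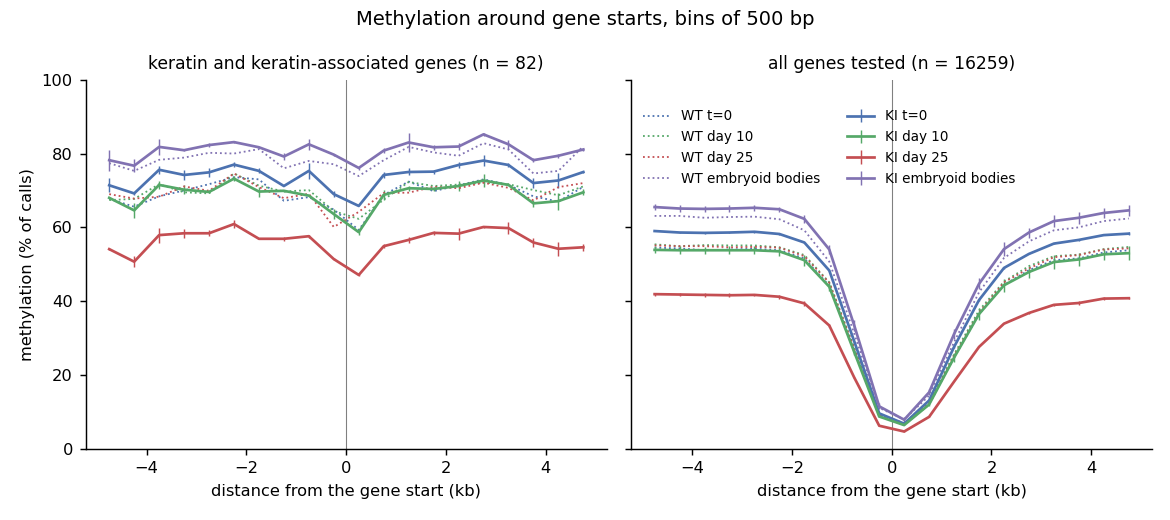
Methylation (% of calls, y axis) in bins of 500 bp by distance from the gene start (kb, x axis), for 82 keratin and keratin-associated genes of known strand (left) and all 16259 tested genes of known strand (right). Solid lines are means of the 2 KI clones with their SD and dotted lines the WT library, colours are stages, and the first bin after the start stood at 65.8% in KI cells at t=0 for keratin genes and at 6.80% for all genes.

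A few keratins were an exception. Krt1, the suprabasal type II keratin (chr15:101844426-101846426, 55 CpGs), had 12.1%, 18.3% and 16.8% in the embryoid bodies of N5, N9 and WT, against 8.91% and 8.47% in N5 and N9 and 5.90% in WT cells at t=0. Krt19, a type I keratin of simple epithelia (chr11:100144926-100146926, 61 CpGs), had 5.50% and 10.7% in N5 and N9 and 9.51% in WT cells at t=0. Krt10, the partner of Krt1 (chr11:99384254-99386254, 65 CpGs), had 24.4% in N5, 10.8% in N9 and 17.0% in WT cells at t=0, in a window at the far end of the gene. The clones differed more at Krt10 than KI differed from WT. Krt222 stood at 11.3%, 13.2% and 14.5% in N5, N9 and WT cells at t=0, with 29 CpGs. These 4 were the low end of the distribution, and Krt7 (37.3% ± 4.20 in KI, 35.3% in WT), Krt87 (32.9% ± 1.63 in KI, 28.6% in WT), Krt71 (42.7% ± 3.35 in KI, 37.4% in WT) and Krt17 (44.1% ± 1.32 in KI, 31.3% in WT) were intermediate at t=0. Krt87 had the most CpGs (69) and Krtap5-2 the fewest (5).

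**Figure D2:**
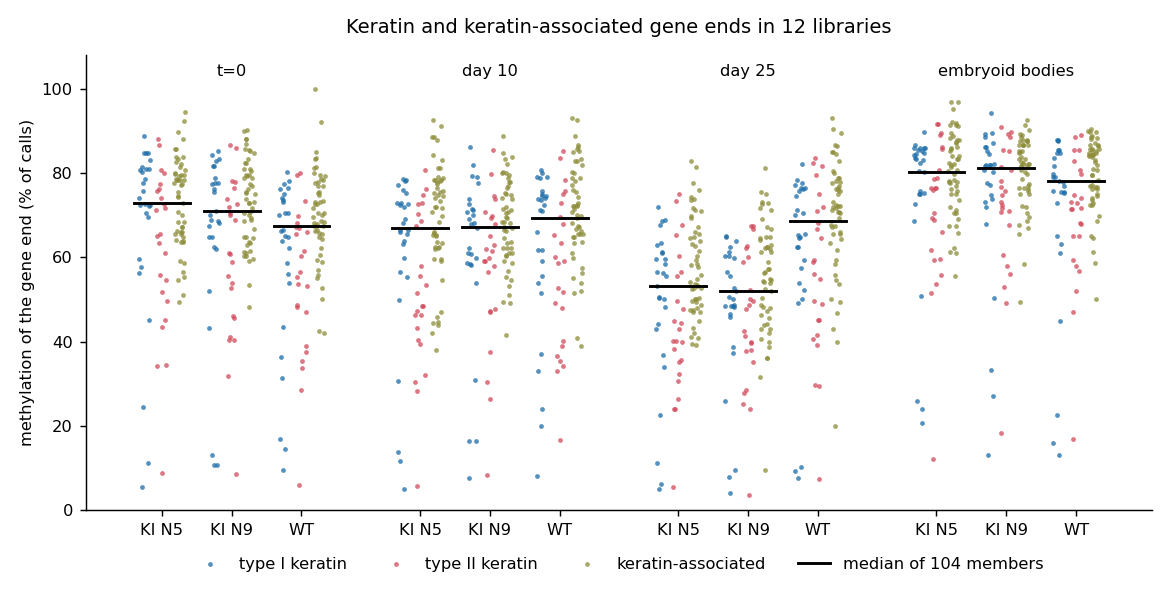
Methylation of each of the 104 keratin and keratin-associated gene ends (% of calls, y axis) in the 12 libraries, ordered by stage and, within a stage, KI clone N5, KI clone N9 and WT. Points are genes, coloured by type, and bars are medians, which at day 25 stood at 53.3% in N5, 52.1% in N9 and 68.7% in WT.

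The comparison of KI cells at day 10 with t=0 spans the doxycycline pulse and the 5 days after it. The samples include no KI culture kept without doxycycline until day 10, so the pulse and time in culture cannot be told apart. The median over the keratin genes changed by -4.93 points, with -6.08 in N5 and -3.80 in N9, against -1.02 over all ends. Over the same interval WT cells changed by a median of 1.75 points in the keratin genes and 0.174 over all ends. Krtap22-2, a keratin-associated gene (chr16:89009380-89011380, 29 CpGs), was the 1 member called lower, among 0.0541% of all ends called lower. Its levels were 70.8% and 66.5% in N5 and N9 at day 10, against 85.6% and 90.2% at t=0, while WT had 77.2% at day 10 and 67.5% at t=0 (edgeR, log2 odds -1.77, SE 0.39, adjusted p = 0.0409). The clones did not overlap between stages at this gene. The call was lost with limma, with the replicate block and when any of the 4 libraries was left out. In 49 of 104 genes both clones at day 10 lay below both at t=0, a pattern seen in 35.1% of all ends.

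By day 25 most keratin genes had lost methylation in KI cells. Of the 104 genes 71 fell at day 25 relative to t=0 and 0 rose (edgeR quasi-likelihood test, Benjamini-Hochberg adjusted p under 0.05), where 40.2% of all gene ends fell. Without N5 or N9 at t=0 the count was 36 or 47, without N5 or N9 at day 25 it was 41 or 38, and limma called 46. Counts over all ends without these libraries are not given here. By limma 5882 of all 20320 ends fell. The median change was -17.3 points, -17.1 in N5 and -16.4 in N9, against -3.90 over all ends, and 104 of 104 had a mean change below 0. Relative to the starting level, keratin genes and other methylated ends had similar medians. Among ends with at least 20% methylation at t=0, the 100 keratin genes kept a median of 75.5% of their level (quartiles 70.1% and 80.9%), and all 7940 such ends kept 73.9% (65.2% and 81.1%). On the log2 odds scale the median of all ends shifted by -0.84. With limma centred on that shift, 0 keratin genes were called and 0 of all ends, and 81 of the 104 had a change below the median end.

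**Figure D3:**
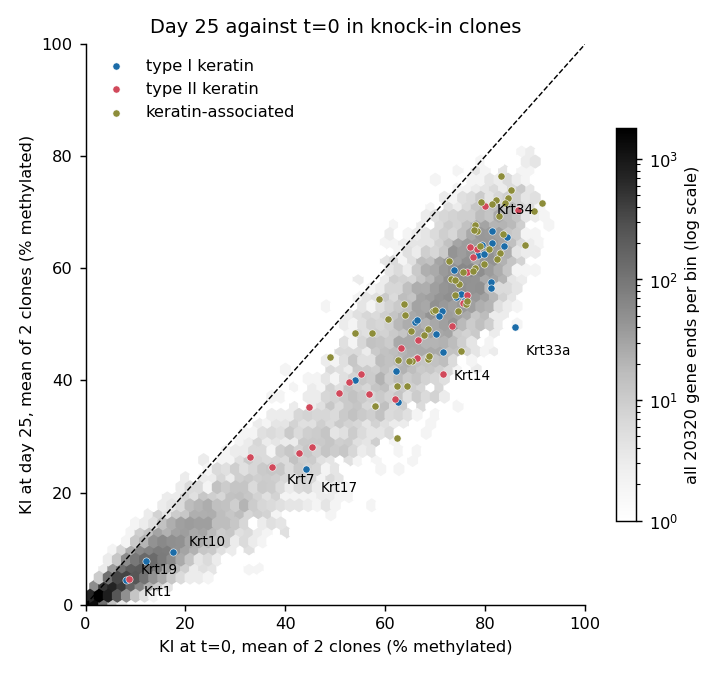
Methylation of gene ends in KI cells at day 25 (y axis, % of calls, mean of 2 clones) against t=0 (x axis). Grey bins count all 20320 ends on a log scale, coloured points are the 104 keratin and keratin-associated genes, which all lie below the dashed line of equal levels, and Krt33a fell furthest, with 49.5% at day 25 against 86.0% at t=0.

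Among type I keratins 24 of 27 fell, including all 9 hair keratins and all 4 of the inner root sheath. Krt33a, a type I keratin of the hair shaft (chr11:100015212-100017212, 26 CpGs), had 50.6% and 48.3% in N5 and N9 at day 25, against 88.7% and 83.2% at t=0, the largest change of any member (-36.5 points, SD 2.29, log2 odds -2.62, SE 0.36, adjusted p = 8.67e-05). Its WT levels were 70.1% at day 25 and 74.9% at t=0. Krt14, the type I keratin of basal cells (chr11:100206510-100208510, 35 CpGs), had 44.1% and 45.9% in N5 and N9 at day 25, against 72.3% and 70.9% at t=0 (-26.6 points, SD 2.22, adjusted p = 0.00135). WT cells had 62.4% at day 25 and 63.8% at t=0 at Krt14. In both genes the clones lay close together at day 25 and well below their t=0 values. Krt42 (-26.3 points), Krt13 (-24.8), the type I keratin of internal stratified epithelia, and Krt39 (-23.6), a hair keratin, completed the 5 largest falls. Of the hair keratins Krt31 fell by 19.9 points (adjusted p = 0.00329) and Krt34 by 14.7 points (adjusted p = 0.0175), and Krt27 of the inner root sheath fell by 1.16 on the log2 odds scale (adjusted p = 0.0109). The 3 type I genes that did not pass were the lowly methylated Krt10 (-8.16 points, adjusted p = 0.0865), Krt19 (-3.64, adjusted p = 0.0926) and Krt222 (-4.34, adjusted p = 0.14).

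Among type II keratins 16 of 24 fell, 5 of 8 in the hair, 3 of 3 in the inner root sheath and 8 of 13 of the others. Krt81, a type II hair keratin (chr15:101462765-101464765, 43 CpGs), had 39.9% and 42.6% in N5 and N9 at day 25, against 71.1% and 71.9% at t=0 (-30.2 points, SD 1.30, adjusted p = 0.00107). WT cells had 56.0% at day 25 and 53.7% at t=0 there. Krt5, the basal type II keratin (chr15:101711905-101713905, 35 CpGs), had 55.6% and 52.2% in N5 and N9 at day 25, against 80.8% and 70.5% at t=0 (-21.7 points, SD 4.83, adjusted p = 0.00397). WT cells had 72% at day 25 and 68% at t=0. Krt4, the mucosal partner of Krt13, fell by 25.3 points, the hair keratin Krt88 by 23.4 and the epidermal Krt2 by 22.3. Krt71 of the inner root sheath fell by 15.7 points (adjusted p = 0.0172) and Krt7 by 12.8 points (adjusted p = 0.042). Krt1 (-4.18 points, adjusted p = 0.062), Krt86 (-9.55, adjusted p = 0.146) and Krt87 (-6.65, adjusted p = 0.228) did not pass.

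Among keratin-associated genes 31 of 53 fell. Krtap6-3, a gene for a hair protein rich in glycine and tyrosine (chr16:89083534-89085534), had 47.5% and 42.9% in N5 and N9 at day 25, against 74.4% and 76.1% at t=0 (-30.0 points, SD 4.53, adjusted p = 0.0107), from 9 CpGs and as few as 21 calls in a library. Krtap5-2 (-25.3 points), Krtap3-3 (-24.7), Krtap31-2 (-24.4) and Krtap22-2 (-23.7) followed. By location 14 of 22 fell on chromosome 11, 11 of 22 on chromosome 16, 2 of 5 on chromosome 7, 3 of 3 on chromosome 10 and the single gene on chromosome 1. The windows of the 3 genes on chromosome 10 overlap Tspear and that of Krtap5-5 on chromosome 7 overlaps Gm40460, so these 4 values are shared with genes that are no keratins. Of the 13 genes for glycine- and tyrosine-rich proteins 5 fell. Krtap4-13 shows what few calls allow, since its mean change of -32.5 points rested on clones at 29.8% ± 28.6 at day 25 and did not pass (adjusted p = 0.0647), and its poorest library had 10 calls. Members had a median of 116 calls in their poorest library. Reads of near-identical copies, as in the Krtap4, Krtap6, Krtap9 and Krtap19 families, Krt6a and Krt6b, Krt33a and Krt33b, or Krt81, Krt83 and Krt86, can be placed on the wrong copy, so single values of these genes are uncertain.

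The number of CpGs in a window went with the calls. Of keratin genes with 5 to 19 CpGs 10 of 28 fell, against 40.7% of all ends in that range, and of those with 20 to 39 CpGs 48 of 57 fell, against 72.3% of all ends. Median changes were -12.3 and -17.5 points in the keratin genes of these ranges, and -15.6 and -16.5 points in all ends. With 40 to 59 CpGs 12 of 15 keratin genes fell, against 49.3% of all ends. In that last range the keratin genes started from a median of 69.9% ± 1.68 in KI cells at t=0 and all ends from 16.0% ± 0.175.

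Embryoid bodies were more methylated than day 25 cells at nearly every keratin gene. In KI cells 92 of 104 rose, where 74.6% of all ends rose, and the median change was 26.1 points, against 7.22 over all ends. On the log2 odds scale the median shift was 1.84 in the keratin genes and 1.29 over all ends. Limma centred on the median end called 0 keratin genes and 0 of all ends, with 87 of 104 keratin genes above it. All 27 type I keratins rose, 23 of 24 type II keratins and 42 of 53 keratin-associated genes. Krt81 had 89.4% and 81.4% in N5 and N9 embryoid bodies, against 39.9% and 42.6% at day 25 (44.1 points, SD 7.51, adjusted p = 4.75e-07). Krt14 had 86.7% and 81.8% in N5 and N9 embryoid bodies, against 44.1% and 45.9% at day 25 (39.3 points, SD 4.72, adjusted p = 7.29e-07). Krt5 had 89.1% and 85.1% in N5 and N9 embryoid bodies, against 55.6% and 52.2% at day 25 (33.2 points, SD 0.395, adjusted p = 3.02e-06). The clones of the 2 stages lay far apart at each of these 3 genes.

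The rise also took in the lowly methylated keratins. Krt19 rose by 19.4 points (adjusted p = 3.4e-06), to 20.6% and 27.1% in N5 and N9 embryoid bodies, against 4.94% and 3.99% at day 25. Krt1 rose by 10.7 points (adjusted p = 0.000255) and Krt10 by 10.2 points (adjusted p = 0.0247). Krtap6-3 (41.3 points), Krtap5-2 (38.0), Krtap16-1 (36.3), Krtap3-3 (35.5) and Krtap1-4 (33.6) rose most among keratin-associated genes. WT embryoid bodies also stood above WT day 25 cells, by a median of 10.1 points over the keratin genes and 1.89 over all ends, with 91 of 104 keratin genes and 14469 of 20320 ends above. With 1 WT library a stage, that change was not tested.

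KI embryoid bodies also stood above KI cells at t=0. Here 15 of 104 keratin genes rose, against 8.92% of all ends, and the median change was 7.56 points against 2.49. The ends with at least 20% methylation at t=0 reached a median of 111% of their t=0 level in keratin genes and 113% in all ends. Among type II keratins Krt80 (21.6 points), Krt86 (20.1), Krt75 (19.5), Krt87 (17.5), Krt73 (13.1) and Krt83 (11.3) rose. Among type I keratins Krt222 (16.3 points), Krt19 (15.7), Krt14 (12.7) and Krt15 (12.0), another basal keratin, rose. Krtap13-1 (24.3 points), Krtap5-4 (19.3), Krtap1-4 (18.5), Krtap16-1 (16.6) and Krtap1-5 (14.5) made up the rest. Krt5, at 11.5 points, did not pass (adjusted p = 0.0637). These calls were among the least stable, since limma called 0 of the 104, and 1 of all 20320 ends higher. Leaving out N5 or N9 at t=0 gave 0 or 3 calls among keratin genes, and leaving out N5 or N9 embryoid bodies gave 2 or 6. The matching counts over all ends are not given here. WT embryoid bodies stood a median of 10.8 points above WT t=0 cells, with 97 of 104 keratin genes above, against a median of 2.09 points and 14861 of 20320 over all ends.

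Set against WT cells of the same stage, KI cells differed at day 25. There 11 of 104 keratin genes were lower in KI cells and 0 higher, where 10.2% of all ends were lower. The share of keratin genes called was thus close to that of all ends. The median difference was -13.4 points, with -13.3 in N5 and -13.7 in N9, against -2.79 over all ends, and on the log2 odds scale it was -0.95, against -0.71. With limma centred on the median end 0 keratin genes were called, and 13 of all 20320 ends were called lower and 1 higher. After centring 62 of the 104 keratin genes lay below the median end and 42 above. Limma without centring called 567 of all 20320 ends lower. Among ends at 20% or more in WT cells at day 25, KI cells had a median of 78.5% of the WT level in keratin genes and 78.0% in all ends. In 89 of the 104 both clones lay below the WT library, a pattern seen in 76.4% of all ends. The genes called lower were the type I keratins Krt17 (-29.6 points, adjusted p = 0.0035), Krt42 (-28.7) and Krt13 (-25.6), the type II keratin Krt78 (-19.7), and Krtap28-13 (-31.4 points, adjusted p = 0.00406), Krtap2-4 (-29.1), Krtap3-3 (-26.8), Krtap3-1 (-26.3), Krtap4-9 (-24.3), Krtap4-6 (-24.2) and Krtap1-3 (-23.7). Krt5 at -18.0 points (adjusted p = 0.0835) and Krt14 at -17.4 points (adjusted p = 0.108) did not pass. In 8 genes the KI mean lay above WT, and in 3 of them both clones did, Krtap5-5 (17.8 points, adjusted p = 0.313), Krtap5-3 (15.2, adjusted p = 0.368) and Krtap5-1 (1.69, adjusted p = 0.916), with 7, 7 and 8 CpGs, none of which passed. The count of 11 fell to 2 with limma and to 4 or 7 without N5 or N9 at day 25, and was 36 with windows of 2000 bp. For the left-out libraries and wider windows, counts over all ends are not given here, so these counts have no background share.

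At the other stages edgeR called 0 keratin genes between genotypes. At t=0 the median difference was 5.65 points higher in KI cells, against 0.770 over all ends, with 11 keratin genes and 1871 of 20320 ends at an unadjusted p under 0.05, 0 keratin genes called by limma and 0.536% of all ends called in either direction by edgeR. At day 10 it was -2.10 points, with 9 keratin genes and 1475 of all ends at an unadjusted p under 0.05, 0 keratin genes by limma and 0.0148% of all ends called. In embryoid bodies it was 2.01 points, with 5 keratin genes and 1778 of all ends at an unadjusted p under 0.05, 0 keratin genes by limma and 0.0689% of all ends called. Since KI cells stood above WT cells before any doxycycline, the change from t=0 was also compared between genotypes. For day 10 that difference of differences had a median of -6.80 points, with 0 keratin genes called by edgeR or limma, 8 keratin genes and 1446 of all ends at an unadjusted p under 0.05, and 0.0344% of all ends called.

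For day 25 against t=0, 7 keratin genes had a KI change that was lower than the WT change and 0 higher, where 2.11% of all ends were called lower. They were Krt42 (-55.0 points, adjusted p = 0.0179), Krt17 (-42.4, adjusted p = 0.029), Krtap28-13 (-36.8, adjusted p = 0.0443), Krtap3-1 (-36.3, adjusted p = 0.0376), Krt13 (-33.1, adjusted p = 0.0484), Krtap22-2 (-31.8, adjusted p = 0.0399) and Krt33a (-31.7, adjusted p = 0.0485). At Krt42 (chr11:100268951-100270951, 29 CpGs), N5 and N9 had 33.9% and 38.6% at day 25, against 57.6% and 67.5% at t=0, while WT had 64.9% at day 25 and 36.3% at t=0. The WT level was thus 28.6 points higher at day 25, the largest such WT difference among the 104 genes, and both clones were lower. Both deposited WT columns showed it, with 66.7% and 63.8% at day 25, against 27.2% and 40.4% at t=0. Taken as lanes of 1 library, the 2 columns do not replicate the WT difference. Krt17, a keratin of skin appendages and wounded epidermis (chr11:100260029-100262029, 36 CpGs), had 22.5% and 25.9% in N5 and N9 at day 25, against 45.1% and 43.2% at t=0. WT had 53.8% at day 25 (95% Wilson interval 47.1 to 60.4, counting error only) and 31.3% at t=0 (25.9 to 37.2) at Krt17. Its WT columns differed from each other, with 66.2% and 47.5% at day 25 and 39.8% and 26.9% at t=0. At Krt33a, by contrast, WT was at 70.1% at day 25 and 74.9% at t=0, and the difference lay in the KI cells. Krt42 and Krt17 are neighbours at one end of the type I cluster. Leaving out N9 at day 25 gave 1 call and leaving out any of the other 3 KI libraries gave 2, limma gave 0, and windows of 2000 bp gave 29. Counts over all ends at these settings are not given here, so whether the 29 exceed the share of all ends was not tested.

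**Figure D4:**
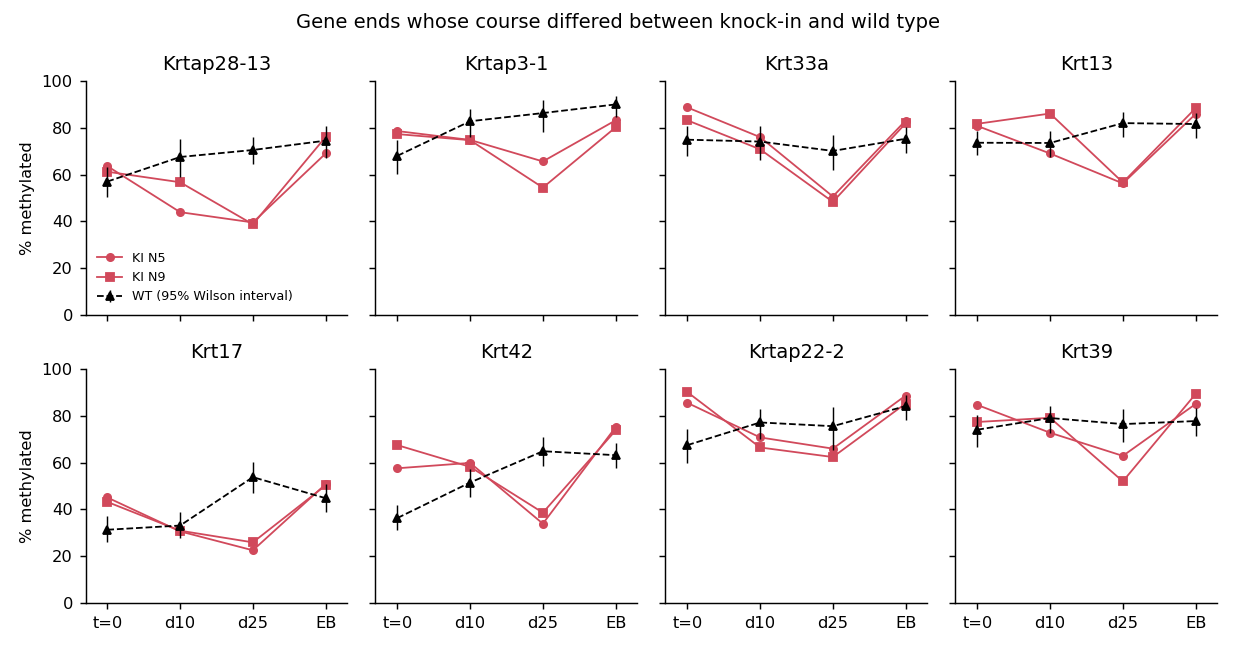
Methylation (% of calls, y axis) by stage (t=0, d10 for day 10, d25 for day 25, EB for embryoid bodies) of the 8 keratin and keratin-associated genes whose change between stages was called different between KI and WT cells. Red lines are the KI clones, the dashed black line is the WT library with its 95% Wilson interval (counting error only), and at Krt42 and Krt17 the WT level was higher at day 25 than at t=0 while both clones were lower.

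For embryoid bodies against day 25, 4 type I keratins rose more in KI than in WT cells, where 6.07% of all ends did. They were Krt42 (39.9 points, adjusted p = 0.0105), Krt17 (35.3, adjusted p = 0.0188), Krt13 (31.1, adjusted p = 0.0341) and Krt39 (28.4, adjusted p = 0.0423). This share was below the share of all ends, and both comparisons use the same day 25 libraries. Krt39 had 85.1% and 89.4% in N5 and N9 embryoid bodies, against 62.9% and 52.0% at day 25, while WT had 77.8% in embryoid bodies and 76.5% at day 25. Leaving out any of the 4 KI libraries gave 2 calls, limma gave 0, and windows of 2000 bp gave 16, again without counts over all ends.

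The members lie in 4 clusters of at least 5 genes, apart from 3 on chromosome 10 and 1 on chromosome 1. The type I cluster (chr11:99232761-100269951) holds 49 members with their keratin-associated genes, the type II cluster (chr15:101348315-101996624) 24, and the keratin-associated clusters on chromosome 16 (chr16:88610709-89571183) and chromosome 7 (chr7:142174532-142304503) 22 and 5. In the type I cluster all CpGs together stood in KI cells at 71.6% ± 0.223, 65.8% ± 0.347, 52.9% ± 0.623 and 78.8% ± 0.638 over the 4 stages. WT cells had 66.7%, 67.2%, 66.5% and 76.4% there. CpGs of this cluster outside the member windows and outside genes had 54.7% ± 0.26 at day 25 and 72.8% ± 0.0133 at t=0 in KI cells, so the DNA between the genes moved by about as much. The type II cluster stood in KI cells at 71.5% ± 0.122, 66.3% ± 0.0328, 54.3% ± 0.726 and 79.5% ± 1.00 over the 4 stages. Over the whole genome KI cells had 48.1% ± 0.467 at day 25 and 64.8% ± 0.0881 at t=0.

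In KI cells at t=0 the type I, type II and chromosome 16 clusters stood above both of their flanks, and the chromosome 7 cluster stood below both. The type I cluster held 97.8 CpGs per 10 kb, against 158.1 and 151.5 in the flanks of 500 kb on either side. These flanks stood at 31.6% ± 0.0129 and 33.4% ± 0.866 in KI cells at day 25, against 48.1% ± 0.66 and 50.4% ± 0.0684 at t=0. The keratin-associated cluster on chromosome 16 had 60.7% ± 1.10 in KI cells at day 25 and 75.5% ± 0.761 at t=0, and that on chromosome 7 had 51.9% ± 0.0423 at day 25 and 64.2% ± 0.582 at t=0. The flanks of the chromosome 16 cluster had 71.5% ± 0.993 and 71.9% ± 0.459 at t=0, and those of the chromosome 7 cluster 67.6% ± 1.46 and 66.9% ± 0.621. At day 25 KI cells had changed by -18.7 points in the type I cluster (flanks -16.5 and -17.1), -17.2 in the type II cluster (-16.9 and -15.3), -14.7 on chromosome 16 (-16.4 and -18.8) and -12.3 on chromosome 7 (-15.1 and -14.7). These differences were not tested. In tiles of 10000 bp, 29 of 271 in the clusters fell by day 10 (9.67% of all tiles did), 263 by day 25 (95.1% of all tiles), 268 rose in embryoid bodies against day 25 (99.4%), and 154 rose against t=0 (57.1%). The day 10 count was 0 by limma, 1 without N5 or N9 at t=0, and 0 or 20 without N5 or N9 at day 10. The count against t=0 was 92 without N9 at t=0 and 88 without N9 embryoid bodies. Median tile changes at day 25 were -17.9 points in the type I cluster, -16.5 in the type II cluster, -14.6 on chromosome 16 and -12.2 on chromosome 7.

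**Figure D5:**
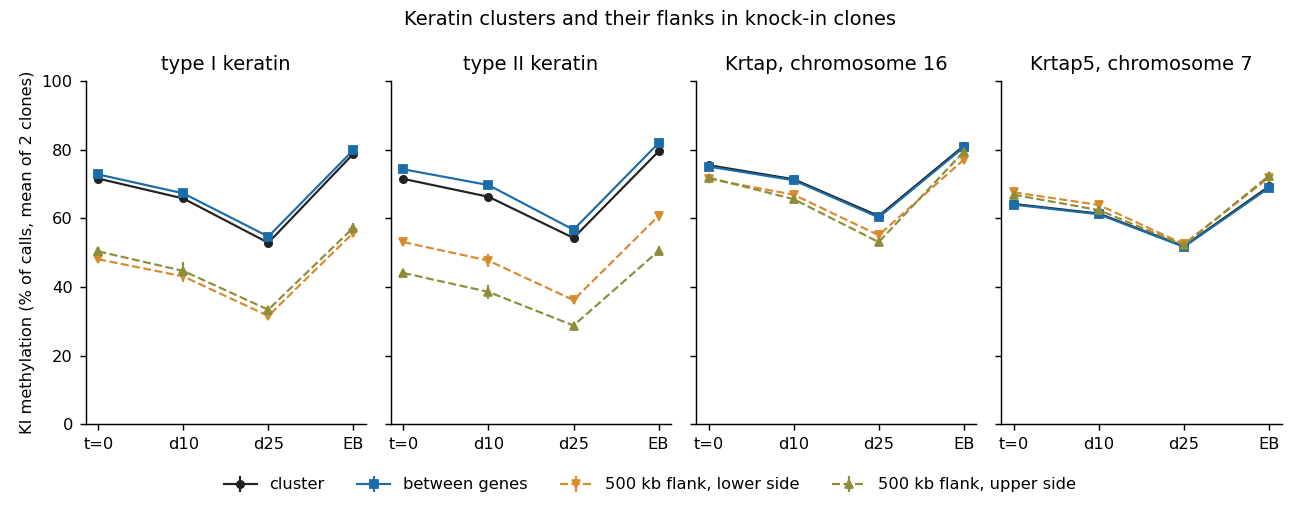
Methylation of all CpGs (% of calls, y axis, mean ± SD of the 2 KI clones) by stage (t=0, d10 for day 10, d25 for day 25, EB for embryoid bodies) in 4 keratin clusters, in their DNA between genes, and in flanks of 500 kb. All fall to day 25 and rise in embryoid bodies, and the type I and type II clusters run above their flanks, as at t=0 with 71.6% in the type I cluster and 48.1% and 50.4% beside it.

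Krt8 and Krt18, which the early embryo already expresses, were left out of the set and serve for comparison. Krt8 had 13.5% and 13.3% in N5 and N9 at day 25, against 25.4% and 23.5% at t=0 (-11.0 points, adjusted p = 0.0168), and WT had 26.7% at day 25 and 31.3% at t=0. Krt18 had 10.7% and 11.6% in N5 and N9 at day 25, against 15.2% and 14.9% at t=0, and did not pass (adjusted p = 0.243). Both rose in KI embryoid bodies against day 25, Krt8 by 21.2 points (adjusted p = 7.5e-05) and Krt18 by 11.1 points (adjusted p = 0.0045). Both stood below the median keratin gene at every stage.

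Other genes of the epidermal programme were also measured. Of a list of 42 epidermal differentiation genes, all measured, 28 fell in KI cells at day 25 against t=0 (40.2% of all ends) with a median of -15.7 points, and 38 rose in embryoid bodies against day 25 (74.6% of all ends). Cdsn, the gene of corneodesmosin, had 5.18% and 5.53% in N5 and N9 at day 25, against 25.2% and 20.2% at t=0 (-17.3 points, adjusted p = 0.000343), and WT had 35.3% at day 25 and 27.7% at t=0. The epidermal protease genes Klk5 and Klk7 each fell by 28.7 points, Sbsn by 22.1 and Col17a1, a collagen of the basal cell's anchor to its membrane, by 26.8. The ends of Dsp, the gene of desmoplakin, and of Itga6, an integrin of basal cells, were nearly unmethylated, with 0.897% and 0.397% in KI cells at day 25 against 1.70% and 0.806% at t=0, and did not pass. Trp63 had 59.8% and 43.5% in N5 and N9 at day 25, against 63.2% and 68.8% at t=0 (-14.3 points, adjusted p = 0.065), and did not pass either. Flg, the gene of filaggrin, had 38.6% and 48.1% in N5 and N9 at day 25, against 85.5% and 64.7% at t=0 (-31.7 points, adjusted p = 0.00881). Of 7 regulators of the hair follicle 1 fell, Foxn1, with 51.9% ± 0.446 in KI cells at day 25, against 79.2% ± 1.10 at t=0 (-27.3 points, adjusted p = 0.000526). Olfactory receptor genes, with similar starting levels (73.6% ± 0.309 in KI cells at t=0) but a median of 12 CpGs per window where the keratin genes had 26.5, had 352 of 1001 ends lower at day 25 (35.2%), with a median of -14.6 points.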

How the data were processed

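Per the labels' protocols, TrueMethyl chemistry oxidised the DNA before bisulfite treatment. The submitters' processing notes list BWA and Picard 1.91, with mm10 as the build. For each CpG the authors deposited 2 counts, methylated calls and coverage, without normalization, per the file headers. The methylation caller was not given in the sources used here. Altogether the 24 samples were taken as 12 libraries. The paired WT columns of a stage were summed as lanes, an assumption that the headers do not settle, and 0 value columns were left over. All 10059 CpGs of sampled RefSeq promoters matched a row of the table.

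Calls were summed per window (20320 gene ends) or 10000 bp tile (each library with 30 or more calls), leaving out the first 3000000 bp of chromosomes. edgeR 4.0.16 fitted methylated and unmethylated counts with 8 group terms and 4 residual degrees of freedom, adjusted by Benjamini-Hochberg over all ends in each of 11 comparisons (common dispersion 0.024 for ends). P-values rest on the spread between the 2 clones, with a dispersion common to all ends and a spread moderated over ends. They do not measure the clone spread of a single gene. An exact two-sided permutation test of 2 against 2 cannot go below 0.333. The replicate block pairs stages by clone, which are 2 cell lines, although clone differences did not recur between stages (Pearson r from -0.053 to 0.011 over 20320 ends). Alternatives were limma 3.58.1 on logit values with 1 call added, other minima, windows and ends, left-out libraries and blocks, and, chosen after seeing the data, promoters of 300 bp. Named genes are the 5 largest passed changes per type, direction and comparison, 12 fixed keratins and Krtap22-2, those with the most and fewest CpGs, and the 5 epidermal genes of lowest p, and others were named after their values were seen. The members and lists were chosen with earlier results of these data known.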

Additional observations from a re-analysis of the deposited data

Results flagged for a closer look

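Results were looked at again where the KI change between stages differed from the WT change by the test of that difference. For day 25 against t=0 these were Krt42 (-55.0 points), Krt17 (-42.4), Krtap28-13 (-36.8), Krtap3-1 (-36.3), Krt13 (-33.1), Krtap22-2 (-31.8) and Krt33a (-31.7). For embryoid bodies against day 25 they were Krt42 (39.9 points), Krt17 (35.3), Krt13 (31.1) and Krt39 (28.4). Each rests on WT counts taken as 1 library per stage.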

How the results depend on the processing

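Counts of keratin genes called moved more with the processing than median changes did. With limma, calls against t=0 numbered 0 by day 10, 46 by day 25 and 0 in embryoid bodies, with 2 for KI against WT at day 25, and 0 for the differences in change, and cluster tiles 0 at day 10. With limma centred on the median end, 0 genes were called in each of these and in embryoid bodies against day 25. Over all 20320 ends, centred limma called 1 lower and 13 higher by day 10, and 0 by day 25. For KI against WT at day 25 it called 13 lower and 1 higher. Of all 20320 ends, uncentred limma called 5882 lower by day 25 and 567 lower for KI against WT at day 25. In embryoid bodies against t=0 it called 1 higher. For the other windows, ends, promoters, blocks and left-out libraries, counts over all ends are not given here. Windows of 2000 bp gave 0 genes at day 10, 24 in embryoid bodies against t=0, 36 for KI against WT at day 25, and 29 and 16 for the differences in change at day 25 and in embryoid bodies, with medians of 24.7 points for embryoid bodies against day 25 and -12.2 for KI against WT at day 25. The other gene end gave 0, 26, 17 and 13 at day 10, for KI against WT at day 25 and for these differences, with medians of 23.9 points for embryoid bodies against day 25 and 1.46 for KI against WT embryoid bodies, which was 2.34 with no minimum of CpGs or calls. Promoters of 300 bp, chosen after seeing the data, could be tested for 29 of the keratin genes and gave 0 by day 10, 2 by day 25, 17 and 1 for embryoid bodies against day 25 and t=0, and 0 for KI against WT at day 25 and for the differences in change. Their medians were -18.3 points by day 25, 11.8 for embryoid bodies against t=0, 7.47, 0.741, -12.5 and 3.3 for KI against WT over the 4 stages in order, and -5.16 for the difference in change at day 10, so that the KI against WT median at day 10 turned sign from -2.10. The replicate block removed the 1 call at day 10 (0 left) and gave 71, 92 and 14 genes in the other stage comparisons, and with flow cell it gave 0 at day 10 and 11 and 9 for the differences in change. KI and WT at 1 stage share no clone, so no block could be fitted there. Leaving out 1 library gave 0 to 0 calls by day 10, 36 to 47 by day 25, 85 to 90 and 0 to 6 for embryoid bodies against day 25 and t=0, 4 to 7 for KI against WT at day 25, and 1 to 2 and 2 to 2 for the differences in change. The medians then ran from -5.74 to -4.07 points by day 10, -18.1 to -15.9 by day 25, 25.2 to 26.2 and 6.41 to 8.9 for embryoid bodies, 4.64 to 6.35, -2.47 to -1.88, -13.7 to -13.3 and 1.83 to 2.19 for KI against WT over the 4 stages, and -8.15 to -6.78, -19.0 to -15.7 and 13.9 to 16.2 for the differences in change. Cluster tiles numbered 0 to 20, 244 to 250, 265 to 268 and 88 to 134. Among single genes the sign turned for Krt10 (-0.14) and Krt31 (-0.04, both log2 odds, centred limma) in embryoid bodies against day 25, for Krt222 in embryoid bodies against t=0 (-0.34 with 2000 bp and -0.32 at the other end), and for Krt39 in the difference in change in embryoid bodies (-0.16 with promoters). Other settings for named genes kept side and direction in 2020 cases, lost the call in 276 and gained one in 47. The causes were not tested. Whether depth limits the genes with few CpGs was not tested either.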

Other observations

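Krtap3-2 stood below WT in KI cells at nearly every measurement, with 49.4% and 48.3% in N5 and N9 at t=0 against 77.8% in WT, and 61.2% and 49.3% in N5 and N9 embryoid bodies against 89.6% in WT, none of it called. At day 10 its clones split, with 38.0% in N5 and 84.6% in N9. It was chosen after its values were seen.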
